A study of Mus musculus with 18 samples.

Results

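The genes described here encode the machinery by which capillary endothelium takes up fatty acids, together with transcription factors known to control it. The set has 10 members: the lipase gene Lpl and its endothelial carrier Gpihbp1, the transport genes Cd36, Slc27a3 and Slc27a4, the carrier genes Fabp4 and Fabp5, and the regulators Pparg, Meox2 and Tcf15. They were chosen by name, and each was read from the expression row that the platform annotation gives to its symbol alone, the row with the highest mean over all arrays where a gene had more than 1. All 10 were measured, among 19938 genes with such a row.

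RNA of mouse embryonic endothelial cells had been hybridised to 18 Affymetrix Mouse Gene 1.0 ST arrays, which carry probes along the exons of each gene. Endothelium of lymphatic vessels (LEC) and of blood vessels (BEC) was taken on embryonic day (E) 14.5, on E16.5 and again on E18.5. Each of the 6 groups has 3 arrays, from independent litters per the design text. That text speaks of matching samples, so LEC and BEC arrays of an age may come from the same litters. The labels give replicate numbers but no litter, and the main fit did not pair the arrays. The sources used here name no genotype, strain, treatment or organ, and give the isolation of the cells only by citation. The title of the series concerns lymphatic endothelial identity and the transcription factor GATA2, and the comparisons are LEC against BEC at each age and the ages within each cell type.

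Triglyceride in circulating lipoproteins is split by lipoprotein lipase, which parenchymal cells secrete and which GPIHBP1 carries across the capillary wall and holds on its luminal face. The fatty acids released enter the endothelium through CD36 and the SLC27 transport proteins, are carried in the cytosol by FABP4 and FABP5, and pass on to muscle, heart and fat. PPARG is a fatty-acid-sensing nuclear receptor that activates Cd36, Fabp4 and Gpihbp1 in other settings, and MEOX2 with TCF15 is known to drive fatty acid uptake in heart endothelium. Lymphatic vessels carry absorbed lipid away from tissue and gut as lipoprotein by another route.

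All values are log2 expression values, so a difference of 1 is a 2-fold difference, and a level of 1 gene is not compared with that of another because probes differ in brightness. Over all arrays the median value was 5.43 to 5.58, and the interquartile range was 3.18 to 3.36 at E18.5, against 3.40 to 3.58 at E14.5 and 3.54 to 3.64 at E16.5. Arrays of 1 group correlated with each other at 0.976 to 0.992, lowest at E18.5. No member fell below 4.66 on any array, the level under which 95% of the values of 1194 olfactory and vomeronasal receptor genes lay, taken here as the bound for a dim gene. The endothelial markers fitted the labels. All 7 measured lymphatic markers, such as Prox1 and Lyve1, were higher in LEC (mean per array 10.9 to 11.4 in LEC and 6.91 to 8.71 in BEC). All 8 blood endothelial markers were lower in LEC (6.68 to 7.67 in LEC and 10.3 to 10.8 in BEC). Pan-endothelial markers averaged 10.2 to 10.6 in LEC and 10.9 to 11.2 in BEC. Markers of other cells were present too. For mast cell markers the log2 of the summed linear level was 13.5 to 14.6 in LEC. The lymphatic markers gave 13.8 to 14.5 there by this measure. Macrophage markers averaged up to 8.48 per array in LEC.

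LEC held less of nearly the whole set than BEC. As a mean over the 3 ages, 9 of the 10 members were lower in LEC and Lpl alone was higher, at a Benjamini-Hochberg adjusted limma p under 0.05. Of all genes, 19% were lower and 18.2% higher by this test. In these bulk samples a lower share of cells that express a gene and less RNA in each cell cannot be told apart. The members' median difference was -1.58, against -0.02 over all genes. Cd36, Fabp4, Gpihbp1 and Meox2 were lower by at least 2 log2 units, as were 0.692% of all genes. With age the set split: Cd36, Fabp4, Lpl and Pparg rose by more than 1.5 between E14.5 and E18.5 in LEC and BEC alike, while Fabp5 fell in LEC and did not pass the test in BEC.

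**Figure D1:**
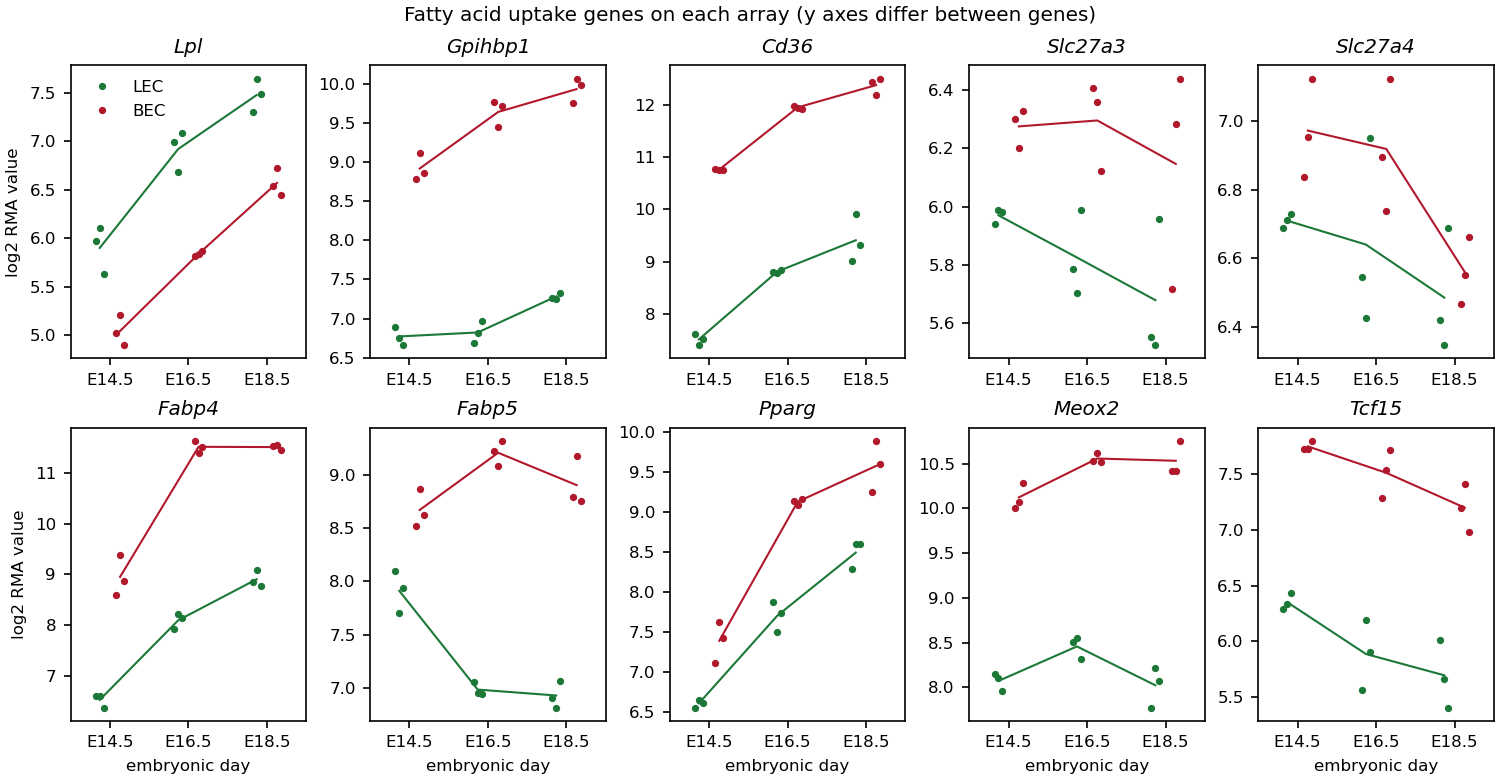
Log2 expression of the 10 members (1 panel each, y axis in log2 units, its range differing between panels) by embryonic day; points are arrays, green for LEC and red for BEC, and lines join group means. Green lies below red in every panel except Lpl and, in part, Slc27a3 and Slc27a4, and the lines of Fabp5 run in opposite directions between E14.5 and E16.5.

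Lpl, the lipase itself, was the one member higher in LEC. Its LEC arrays read 5.97, 6.10 and 5.63 at E14.5, 7.0, 6.68 and 7.09 at E16.5, then 7.30, 7.65 and 7.49 at E18.5. On the BEC arrays it read 5.02, 5.21 and 4.90 at E14.5, 5.81, 5.84 and 5.87 at E16.5, then 6.54, 6.73 and 6.45 at E18.5. Every LEC array lay above every BEC array of the same age, and within each cell type the ages did not overlap. The LEC minus BEC difference was 0.95 ± 0.08 over the 3 ages (SE, adjusted p = 8.2e-09), a 1.93-fold higher level that ranked 791st of 19938 genes from the top, and by age in turn it was 0.86, 1.08 and 0.91. In order of level the groups ran from BEC at E14.5 up to LEC at E18.5, and LEC of E14.5 overlapped BEC of E16.5, as LEC of E16.5 did BEC of E18.5.

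Gpihbp1, which encodes the carrier that holds lipoprotein lipase on capillaries, went the other way. LEC arrays gave 6.89, 6.76 and 6.66 at E14.5, 6.69, 6.81 and 6.97 at E16.5, then 7.27, 7.26 and 7.33 at E18.5. BEC arrays gave 8.79, 9.11 and 8.86 at E14.5, 9.76, 9.44 and 9.72 at E16.5, then 9.75, 10.07 and 9.98 at E18.5. The highest LEC array stayed below the lowest BEC array across all ages. The difference was -2.54 ± 0.07 (adjusted p = 8.2e-16), a 5.81-fold lower level in LEC, 72nd of all genes from the bottom. By age in turn it was -2.15, -2.82 and -2.65.

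Cd36, the fatty acid translocase of the cell surface, was the member with the widest gap over the 3 ages together, although Fabp4 had a wider one at E16.5. It read 7.61, 7.40 and 7.52 at E14.5 in LEC, 8.81, 8.79 and 8.83 at E16.5, then 9.01, 9.91 and 9.31 at E18.5. BEC values were 10.78, 10.76 and 10.75 at E14.5, 11.99, 11.95 and 11.92 at E16.5, then 12.44, 12.20 and 12.51 at E18.5. None of the 6 groups overlapped another, so the order ran through the 3 LEC ages and then the 3 BEC ages. The difference over the ages was -3.12 ± 0.09 (adjusted p = 1.4e-15), 8.72-fold lower in LEC and 38th of all genes from the bottom. At the 3 ages in turn it was -3.25, -3.15 and -2.97.

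The other transport genes differed less. Slc27a3, a fatty acid transport family member with acyl-CoA synthetase activity, read 5.94, 5.99 and 5.98 at E14.5, 5.79, 5.70 and 5.99 at E16.5, then 5.55, 5.52 and 5.96 at E18.5 in LEC. In BEC it read 6.30, 6.20 and 6.33 at E14.5, 6.41, 6.36 and 6.12 at E16.5, then 5.72, 6.28 and 6.44 at E18.5. The cell types overlapped only at E18.5, through 1 low BEC array and 1 high LEC array. Its LEC minus BEC difference was -0.41 ± 0.09 over the ages (adjusted p = 0.001), and its difference was -0.47 at E16.5 (adjusted p = 0.033) and again -0.47 at E18.5 (adjusted p = 0.029), while -0.31 at E14.5 did not pass (adjusted p = 0.25). The E16.5 call was lost without any 1 of LEC replicates 1 and 2 and BEC replicates 1 and 2 of that age (adjusted p up to 0.12). The E18.5 call was lost without any 1 of LEC replicates 1 and 2 and BEC replicates 2 and 3 of that age (adjusted p up to 0.15).

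Slc27a4, the family member known for fatty acid uptake in gut and skin, gave 6.69, 6.71 and 6.73 in LEC at E14.5, 6.55, 6.42 and 6.95 at E16.5, then 6.42, 6.35 and 6.69 at E18.5. In BEC it gave 6.84, 6.96 and 7.12 at E14.5, 6.90, 6.74 and 7.12 at E16.5, then 6.47, 6.55 and 6.66 at E18.5. The highest LEC array exceeded some BEC arrays at E16.5 and all of them at E18.5. Its difference of -0.21 ± 0.08 just passed over the 3 ages (adjusted p = 0.049), passed at no single age (adjusted p 0.16 to 0.73), and lost the call in 13 of the 18 fits that left out 1 array (adjusted p up to 0.11).

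Among the cytosolic carriers, Fabp4, the fatty acid binding protein of capillaries and adipocytes, read 6.60, 6.60 and 6.38 at E14.5 in LEC, 7.93, 8.22 and 8.14 at E16.5, then 8.84, 9.09 and 8.77 at E18.5. In BEC the arrays gave 8.60, 9.38 and 8.87 at E14.5, 11.63, 11.40 and 11.52 at E16.5, then 11.53, 11.54 and 11.45 at E18.5. LEC lay below BEC at every age, LEC at E18.5 overlapped BEC at E14.5, and BEC at E16.5 overlapped BEC at E18.5. The difference was -2.82 ± 0.09 over the ages (adjusted p = 4.3e-15), 7.05-fold lower in LEC and 53rd of all genes from the bottom. By age it was -2.43, -3.42 and -2.61.

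Fabp5, a related carrier that is more widely expressed, gave LEC values of 8.09, 7.71 and 7.93 at E14.5, 7.05, 6.95 and 6.94 at E16.5, then 6.91, 6.81 and 7.06 at E18.5. BEC values were 8.52, 8.86 and 8.63 at E14.5, 9.23, 9.08 and 9.32 at E16.5, then 8.79, 9.17 and 8.75 at E18.5. LEC was highest at E14.5 and close to level afterwards, and all LEC arrays lay below all BEC arrays. The difference over the ages was -1.65 ± 0.08 (adjusted p = 9.6e-13, 3.15-fold lower in LEC), with -0.76, -2.23 and -1.98 by age in turn. Fabp5 had 2 rows on the array, and the other row gave -1.70 ± 0.07 (adjusted p = 4.7e-13).

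Of the regulators, Meox2 showed the widest gap. Meox2, a homeobox gene, read 8.15, 8.10 and 7.96 at E14.5 in LEC, 8.51, 8.55 and 8.31 at E16.5, then 7.77, 8.22 and 8.07 at E18.5. BEC arrays read 10.01, 10.07 and 10.28 at E14.5, 10.53, 10.62 and 10.52 at E16.5, then 10.42, 10.42 and 10.75 at E18.5. LEC and BEC did not overlap at any pair of ages. The difference was -2.22 ± 0.07 (adjusted p = 7.9e-15, 4.66-fold lower in LEC, 102nd of all genes from the bottom), with -2.05, -2.10 and -2.51 at the ages in turn.

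Tcf15, a basic helix-loop-helix gene whose product pairs with MEOX2, gave 6.29, 6.33 and 6.43 in LEC at E14.5, 5.57, 6.19 and 5.90 at E16.5, then 6.02, 5.66 and 5.41 at E18.5. In BEC it gave 7.73, 7.73 and 7.80 at E14.5, 7.29, 7.54 and 7.71 at E16.5, then 7.20, 7.41 and 6.99 at E18.5. Again every LEC array lay below every BEC array, and in both cell types E14.5 was highest. The difference was -1.51 ± 0.10 (adjusted p = 1.1e-10, 2.85-fold lower in LEC), with -1.40, -1.63 and -1.50 by age.

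Pparg, the nuclear receptor gene, read 6.56, 6.65 and 6.62 at E14.5 in LEC, 7.88, 7.50 and 7.73 at E16.5, then 8.29, 8.60 and 8.59 at E18.5. BEC readings were 7.12, 7.63 and 7.43 at E14.5, 9.14, 9.09 and 9.16 at E16.5, then 9.25, 9.89 and 9.59 at E18.5. LEC was below BEC at each age, but LEC at E16.5 overlapped BEC at E14.5 and LEC at E18.5 exceeded it. The difference was -1.10 ± 0.09 over the ages (adjusted p = 4.3e-09, 2.14-fold lower in LEC), and -0.78, -1.42 and -1.08 by age.

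**Figure D2:**
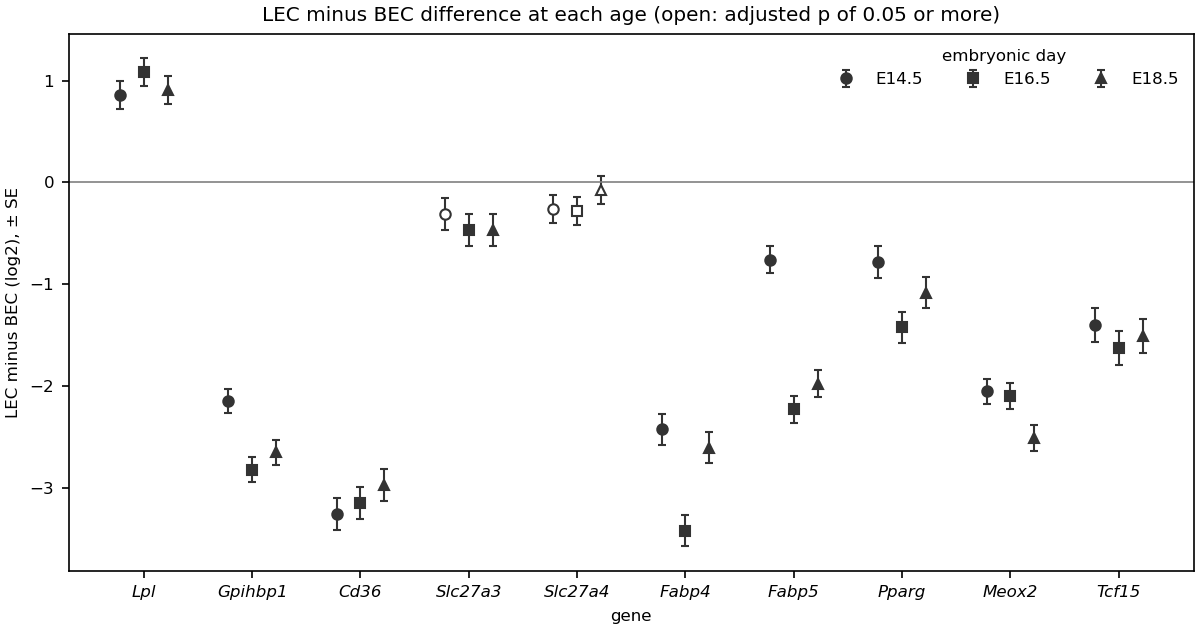
LEC minus BEC difference (log2 units, y axis) of each member (x axis) at E14.5 (circles), E16.5 (squares) and E18.5 (triangles), with limma SE as bars; open symbols have an adjusted p of 0.05 or more. Lpl sits above 0 at all ages, Slc27a3 and Slc27a4 lie close to 0, and the other 7 members lie between -0.76 and -3.42.

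Counted by age, 7 members were lower and 1 higher in LEC at E14.5, where 7.94% of all genes were lower and 8.6% higher. At each of the 2 later ages 8 were lower and 1 higher, against 12.2% of all genes lower and 13% higher at E16.5, and 15.9% lower and 14.6% higher at E18.5. LEC and BEC arrays did not overlap for 10 members at E14.5 (37.2% of all genes), for 9 at E16.5 (40.4%) and then for 8 at E18.5 (34.9%). At every age together this held for 8 members, and for 17% of all genes.

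Pparg, Cd36, Fabp4 and Lpl climbed together from E14.5 to E18.5 in both cell types. In LEC, 5 members rose and 2 fell, where 19.7% of all genes rose and 21.2% fell. In BEC 6 rose and 2 fell, where 13.3% of all genes rose and 17.3% fell. These comparisons share their arrays with those of LEC against BEC. Members had a median change of 0.23 in LEC and 0.71 in BEC, against 0.04 over all genes in both.

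Fabp4 rose by 2.38 ± 0.15 in LEC (adjusted p = 1.2e-09) against 2.56 ± 0.15 in BEC (adjusted p = 1.2e-09), the 112th and 43rd largest rises among all genes. Pparg rose by 1.88 ± 0.15 in LEC (adjusted p = 2e-08) against 2.18 ± 0.15 in BEC (adjusted p = 6.2e-09). For Cd36 the rise was 1.90 ± 0.16 in LEC (adjusted p = 2.2e-08) against 1.62 ± 0.16 in BEC (adjusted p = 2.7e-07). These genes, of which Cd36 and Fabp4 are known PPARG targets in fat cells, were at their highest mean at E18.5 in both cell types except Fabp4 in BEC, whose means at E16.5 and E18.5 were both 11.51. Lpl rose by 1.58 ± 0.14 in LEC (adjusted p = 4.7e-08) against 1.53 ± 0.14 in BEC (adjusted p = 1.3e-07). Gpihbp1 rose by 0.51 ± 0.12 in LEC (adjusted p = 0.0021) against 1.02 ± 0.12 in BEC (adjusted p = 3.3e-06).

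The other members changed less or did not pass the test. Tcf15 fell by 0.66 in LEC (adjusted p = 0.0034) against 0.55 in BEC (adjusted p = 0.016), and the BEC call was lost without replicate 3 of E14.5 or of E18.5 (adjusted p up to 0.077). Its partner Meox2 changed by -0.05 in LEC (adjusted p = 0.79) and rose by 0.41 in BEC (adjusted p = 0.019, a call lost in 3 of the 18 fits with 1 array left out, up to 0.1). Slc27a4 gave -0.22 in LEC (adjusted p = 0.21) and fell by 0.41 in BEC (adjusted p = 0.028, a call lost in 4 of those 18 fits, up to 0.13). Slc27a3 gave -0.29 in LEC (adjusted p = 0.15), with -0.13 in BEC (adjusted p = 0.59).

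Fabp5 was the member whose course differed most between the cell types. It fell by 0.98 ± 0.13 in LEC (adjusted p = 7.2e-06) while it gave 0.23 ± 0.13 in BEC (adjusted p = 0.2). The test of the difference between the age changes, LEC minus BEC, gave -1.22 ± 0.19 (adjusted p = 0.00026), the only one of the 10 members to pass, where 8.85% of all genes did. The other Fabp5 row gave -1.37 ± 0.18 (adjusted p = 6.4e-05). Gpihbp1 had -0.50 ± 0.17 (adjusted p = 0.08), and Meox2 -0.46 ± 0.18 (adjusted p = 0.13), which did not pass.

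**Figure D3:**
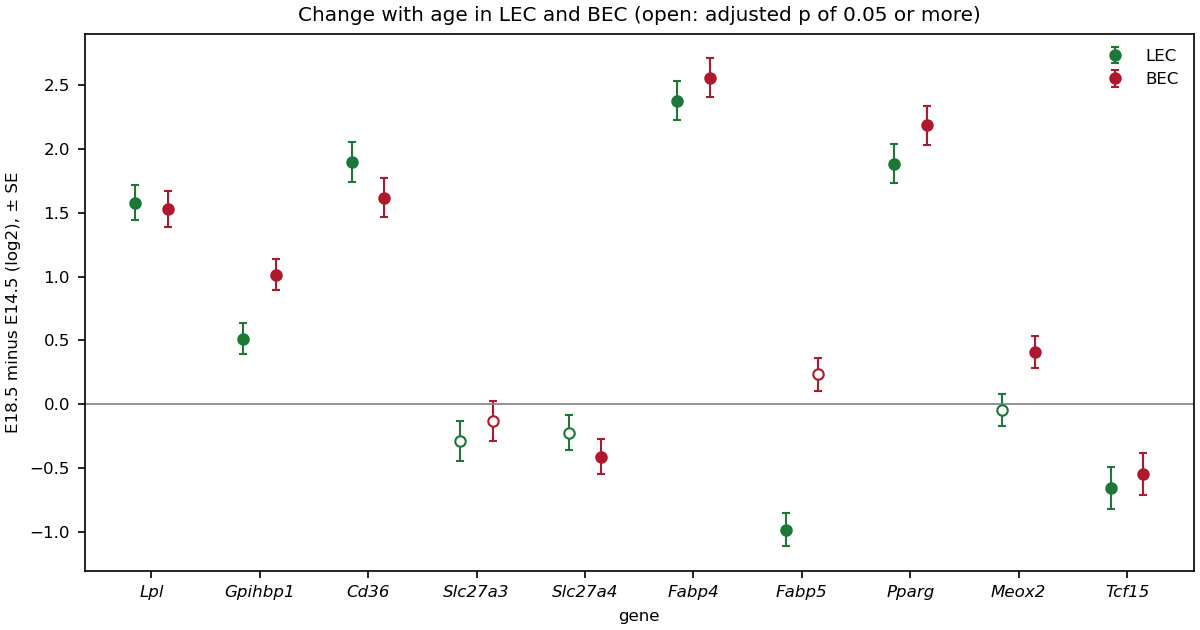
E18.5 minus E14.5 change (log2 units, y axis) of each member (x axis) in LEC (green, left of each pair) and BEC (red), with limma SE as bars; open symbols have an adjusted p of 0.05 or more. Lpl, Cd36, Fabp4 and Pparg rise by 1.53 to 2.56 in both cell types, and Fabp5 lies at -0.98 in LEC and at 0.23 in BEC.

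Much of the climb came before E16.5. From E14.5 to E16.5, 5 members rose and 1 fell in LEC (8.07% of all genes rose and 5.72% fell). In BEC 7 rose and 0 fell (5.1% of all genes rose and 4.66% fell). In LEC over this step Fabp4 rose by 1.57 and Pparg by 1.10. In BEC Fabp4 rose by 2.56, the 2nd largest rise of all 19938 genes, and Pparg by 1.74, the 15th largest. Fabp5 fell in LEC by 0.93 (adjusted p = 9.8e-05), the 41st largest fall, while it rose by 0.54 in BEC (adjusted p = 0.015, a call lost in 3 of the 18 fits with 1 array left out, up to 0.071). Meox2 rose by 0.39 in LEC (adjusted p = 0.049) against 0.43 in BEC (adjusted p = 0.036), calls that were lost in 12 and 5 of the 18 fits with 1 array left out. Over this step the age changes differed between the cell types for Fabp5 (-1.47 ± 0.19, adjusted p = 0.00017), Fabp4 (-0.995 ± 0.22, adjusted p = 0.016) and Gpihbp1 (-0.67 ± 0.17, adjusted p = 0.043), where 2.63% of genes passed. The Gpihbp1 call was lost in 10 of the 18 fits with 1 array left out (adjusted p up to 0.14), and that of Fabp4 without LEC replicate 1 of E16.5 (adjusted p = 0.055).

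From E16.5 to E18.5, 5 members rose and 1 fell in LEC (15.9% of all genes rose and 18.5% fell). In BEC 3 rose and 0 fell (15.8% of all genes rose and 16.4% fell). Fabp4 rose by 0.81 in LEC (adjusted p = 0.00055) but gave -0.01 in BEC (adjusted p = 0.98). The difference between these 2 changes was 0.82 ± 0.22 (adjusted p = 0.044; 3.65% of genes passed), and its call was lost in 14 of the 18 fits with 1 array left out (adjusted p up to 0.11). Lpl rose by 0.56 in LEC and 0.73 in BEC, and Pparg by 0.79 in LEC and 0.45 in BEC. Gpihbp1 rose by 0.46 in LEC (adjusted p = 0.0067), against 0.05 over the earlier step (adjusted p = 0.85), and gave 0.29 in BEC (adjusted p = 0.072). Meox2 fell by 0.43 in LEC (adjusted p = 0.012, and 0.068 without LEC replicate 1 of E18.5). In BEC the calls of Cd36 (0.43, adjusted p = 0.044) and Pparg (adjusted p = 0.033) were lost in 14 and 5 of the 18 fits with 1 array left out.

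Regions before starts of Cd36 and Pparg are shown, picked because they held a single half-site of nuclear receptors. Binding was not tested. The RefSeq promoter table for build GRCm38.p6 held 7 windows for 5 of the 10 members, Cd36, Slc27a3, Slc27a4, Meox2 and Pparg. It held none for Fabp4 and Lpl, which rose with Cd36 and Pparg. The 250 bases before each start were searched on both strands. The capitals mark matches to AGGTCA, the nuclear receptor half-site, and to CANNTG, the E-box bound by basic helix-loop-helix factors such as TCF15. The first window below lies at chr5:17835897-17836146 on the minus strand, and the other 2, before starts 1 and 2 of Pparg in the table, at chr6:115360894-115361143 and chr6:115362099-115362348 on the plus strand.
Cd36: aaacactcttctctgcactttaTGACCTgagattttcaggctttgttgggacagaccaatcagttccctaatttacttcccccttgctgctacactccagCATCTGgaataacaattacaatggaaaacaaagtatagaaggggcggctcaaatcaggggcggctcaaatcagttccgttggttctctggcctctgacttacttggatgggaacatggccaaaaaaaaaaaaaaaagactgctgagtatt
Pparg start 1: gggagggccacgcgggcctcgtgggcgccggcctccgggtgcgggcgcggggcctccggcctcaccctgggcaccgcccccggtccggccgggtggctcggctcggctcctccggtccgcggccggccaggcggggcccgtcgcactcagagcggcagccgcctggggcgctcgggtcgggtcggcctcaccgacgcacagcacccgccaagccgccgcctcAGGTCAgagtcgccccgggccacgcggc
Pparg start 2: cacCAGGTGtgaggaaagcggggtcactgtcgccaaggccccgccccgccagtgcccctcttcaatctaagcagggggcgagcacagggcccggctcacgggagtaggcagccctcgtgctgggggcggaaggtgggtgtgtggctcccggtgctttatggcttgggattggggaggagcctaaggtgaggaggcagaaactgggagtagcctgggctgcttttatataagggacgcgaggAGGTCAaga
Cd36 held the half-site at -228 to -223 from its start, on the other strand, and an E-box at -150 to -145. Pparg held a half-site at -28 to -23 before start 1 and at -9 to -4 before start 2, where an E-box lay at -247 to -242. Its start 3, not shown, held an E-box at -173 to -168 and no half-site. AGGTCA occurred in 14% of 32851 promoter windows of this length, and CANNTG, found in 6 of the 7 member windows, in 66.2%. The direct repeat of this half-site with any 1 base between its copies, which contains the half-site, occurred in 0.0335% of all windows and in no member window. The homeodomain core TAATTA, found in 4.84% of all windows, was in no member window. The same held for AGATAA, a site of GATA factors, found in 9.99% of all windows.

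Genes around lipoprotein lipase showed no shared direction. Among 14 measured genes for lipoprotein lipolysis and lipoprotein receptors, LEC had 4 at a higher and 3 at a lower level over the ages, with a median difference of -0.05. Of all genes 18.2% were higher and 19% lower, with a median of -0.02, which holds beside each list below too. Vldlr, a receptor that binds triglyceride-rich lipoproteins, was higher in LEC by 2.13 ± 0.08 (adjusted p = 1.1e-13), like Lpl. Scarb1, the high-density lipoprotein receptor, was lower (-2.32 ± 0.06, adjusted p = 9.2e-16), as was Hspg2, the heparan sulfate proteoglycan perlecan (-1.98 ± 0.07, adjusted p = 1.2e-14). Angptl4, an inhibitor of lipoprotein lipase, was lower in LEC (-0.47 ± 0.09, adjusted p = 0.00052), and Lmf1, needed for the lipase to fold, gave -0.07 (adjusted p = 0.45).

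With age, 6 of these 14 rose and 3 fell in LEC, and 5 rose and 1 fell in BEC. Of all genes 19.7% rose and 21.2% fell in LEC, and 13.3% rose and 17.3% fell in BEC, beside each list below too. Vldlr rose by 1.97 in LEC and 1.27 in BEC, and Sdc4, a heparan sulfate syndecan, by 2.31 in LEC and 0.69 in BEC. Scarb1 fell by 0.44 in LEC (adjusted p = 0.0035) but rose by 1.38 in BEC (adjusted p = 3.9e-08), a difference of -1.82 ± 0.16 between the age changes (adjusted p = 6.1e-07). Angptl4 rose by 0.45 in LEC (adjusted p = 0.035) against 1.10 in BEC (adjusted p = 3.7e-05), and Lmf1 fell by 0.77 in LEC and by 0.66 in BEC.

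Other transport and binding genes mostly did not follow Cd36 and Fabp4. Of 19 measured, 5 were higher and 4 lower in LEC, with a median of -0.03. Cav1, the coat protein of caveolae, was lower in LEC (-1.06 ± 0.07, adjusted p = 9.1e-11) and rose with age by 1.19 in LEC against 0.32 in BEC. Fabp9 was lower (-1.29, adjusted p = 1.6e-06) but lay below the dim bound on 14 of 18 arrays. Mfsd2a, a lysophospholipid transporter, was higher by 0.81 (adjusted p = 0.00061) but lay below that bound on 3 arrays. Its BEC mean at E18.5 was 4.54. Among further relatives of members, the difference was 0.46 for Slc27a1 (adjusted p = 0.0067), and Fabp3, the heart fatty acid binding protein, gave -0.15 (adjusted p = 0.24). Fabp3 lay below the dim bound on 4 of 18 arrays. The age change of Fabp9 in BEC was 2.29, measured against an E14.5 mean of 3.16 that lay below the dim bound. Got2 encodes the mitochondrial aspartate aminotransferase, for which fatty acid transport at the cell surface has also been proposed. It fell by 1.22 in LEC against 0.96 in BEC, and Dbi, the acyl-CoA binding protein, by 0.998 in LEC against 1.12 in BEC. In each cell type 2 of the 19 rose with age and 2 fell.

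Of 12 lipid storage and release genes, LEC had 2 at a higher and 4 at a lower level than BEC (median -0.10). Mgll, monoglyceride lipase, was lower in LEC (-2.40 ± 0.10, adjusted p = 1.8e-13), as were Lipa, the lysosomal acid lipase (-0.60, adjusted p = 1.6e-05), and Abhd5, a coactivator of triglyceride hydrolysis (-0.41, adjusted p = 2.9e-05). Mgll fell with age by 1.48 in LEC (adjusted p = 1.2e-06) but rose by 1.27 in BEC (adjusted p = 1.2e-05), and the age changes differed by -2.75 ± 0.24 (adjusted p = 6.2e-07), the same direction as for Fabp5. Lipe, hormone-sensitive lipase, gave 0.17 in LEC (adjusted p = 0.32) while it rose by 1.71 in BEC (adjusted p = 1.7e-08), and Dgat1, which makes triglyceride, fell by 1.15 in LEC against 0.46 in BEC. With age, 1 of the 12 rose and 5 fell in LEC, and 3 rose and 4 fell in BEC.

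Among 27 regulators and partners, 5 were higher and 12 lower in LEC, with a median of -0.13. The widest gaps were those of blood endothelial genes, the apelin receptor Aplnr (-4.65 ± 0.18, adjusted p = 1.2e-13), Flt1 (-4.14 ± 0.10, adjusted p = 1.2e-16) and Nrp1 (-3.74 ± 0.12, adjusted p = 8.9e-15), of which Flt1 and Nrp1 encode receptors of VEGFB, a growth factor reported to promote endothelial fatty acid uptake. Vegfb itself was higher in LEC by 0.26 (adjusted p = 0.0012). Rxra, whose product pairs with PPARG, differed by 0.21 (adjusted p = 0.022), Ppard, a relative of Pparg, by -0.33 (adjusted p = 0.0077), and Ppara, another relative, lay below the dim bound on all 18 arrays. Meox1, the relative of Meox2, was lower in LEC (-0.51, adjusted p = 1.3e-05) and showed an age rise of 0.67 in LEC against 1.32 in BEC. The class I partners of basic helix-loop-helix factors gave -0.79 for Tcf3 (adjusted p = 8.3e-08), -0.86 for Tcf4 (adjusted p = 4.2e-10) and 0.02 for Tcf12 (adjusted p = 0.77). Tcf3 fell by 1.11 in LEC over the ages, against 0.90 in BEC, and Nrp1 rose by 2.10 in LEC. Apln fell by 1.14 in BEC. With age, 9 of the 27 rose and 8 fell in LEC, and 5 rose and 5 fell in BEC.

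Most markers of capillary endothelium were lower in LEC. Of 14, 11 were lower and 0 higher, with a median of -1.83, where 19% of all genes were lower and 18.2% higher. The widest gaps were those of the water channel Aqp1 (-4.58 ± 0.17, adjusted p = 6.2e-14), Sparcl1 (-3.97 ± 0.13, adjusted p = 1.3e-14) and Aqp7, a glycerol channel (-2.92 ± 0.14, adjusted p = 1.2e-12), which lay below the dim bound on 4 LEC arrays. With age 10 rose and 1 fell in LEC, and 9 rose in BEC. Aqp1 rose by 1.87 and Sparcl1 by 1.62 in LEC, and Aqp7 by 3.08 and Cd300lg by 3.02 in BEC.

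**Figure D4:**
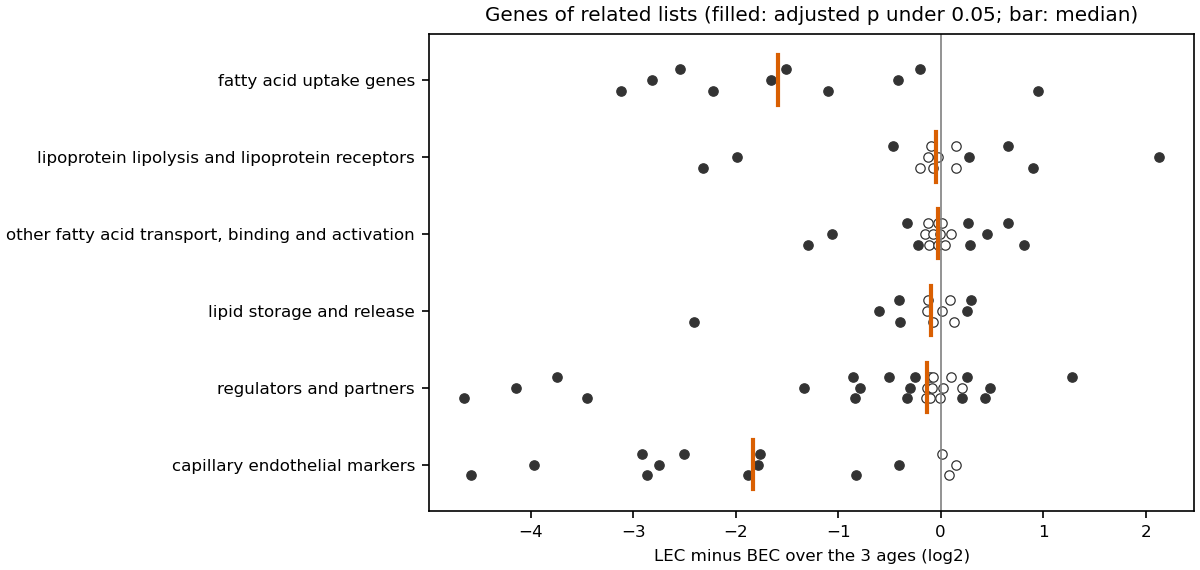
LEC minus BEC difference over the 3 ages (log2 units, x axis) of each measured gene of the members and 5 related lists (rows); filled points have an adjusted p under 0.05 and orange bars are list medians. The members (median -1.58) and the capillary markers (median -1.83) lie left of 0, and the other lists centre between -0.13 and -0.03.

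Markers of other cell types also differed between the groups, and the endothelial markers moved with age. Their part in the results above was not tested. In LEC, where Cd36 and Fabp4 rose, 5 of the 8 blood endothelial markers rose and 3 fell from E14.5 to E18.5 (median 1.02), with means per array of 6.68 to 7.19 at E14.5 and 7.25 to 7.67 at E18.5 and log2 sums of 10.3 to 11.3 over all LEC arrays. In BEC, 3 of these 8 rose and 0 fell, and 6 of the 7 lymphatic markers fell (median -1.75), with means of 8.41 to 8.71 at E14.5 and 6.91 to 7.16 at E18.5. The 12 macrophage markers were all higher in LEC than BEC over the ages, and all 12 rose in LEC with age. Their mean per array was 5.69 to 5.90 at E14.5, 6.82 to 7.82 at E16.5 and 7.90 to 8.48 at E18.5 in LEC, and 4.74 to 5.15 over all BEC arrays. The log2 of their summed linear level was 10.6 to 12.8 in LEC and 8.62 to 9.23 in BEC. Mrc1 weighed most in the LEC sum, with means of 9.92, 10.25 and 11.20 by age. At E14.5 the next highest LEC mean was 6.88, for Fcgr3. Cd163 had group means below the dim bound in LEC at E14.5 and at all BEC ages. Macrophages are known to express Lpl, Cd36, Fabp4, Fabp5 and Pparg. Their part in the higher Lpl and in the rises of Lpl, Cd36, Fabp4 and Pparg in LEC was not tested. Within LEC at E16.5, where macrophage markers averaged 7.73, 6.82 and 7.82 in replicates 1 to 3, Cd36 read 8.81, 8.79 and 8.83 and Lpl 7.0, 6.68 and 7.09. On the same arrays Pparg read 7.88, 7.50 and 7.73 and Fabp4 7.93, 8.22 and 8.14. At that age Lpl, Pparg and Cd36 were lowest, and Fabp4 highest, on the array with the lowest macrophage markers, with Cd36 nearly level. The order differed at the other ages. At E14.5 replicate 3 was lowest in macrophage markers (5.69), Lpl and Fabp4, but Pparg was lowest on replicate 1 and Cd36 on replicate 2. At E18.5 replicate 3 was lowest in macrophage markers (7.90) and Fabp4, while Lpl, Pparg and Cd36 were lowest on replicate 1. Blood endothelial markers in LEC were lowest on replicate 3 at E14.5 (6.68) and on replicate 1 at E16.5 (7.13) and E18.5 (7.25). The array lowest in them was also lowest in Lpl and Fabp4 at E14.5, in Fabp4 at E16.5, and in Lpl, Pparg and Cd36 at E18.5. The rest of these genes were lowest on other arrays. Neither order was tested. In BEC, 1 of the 12 macrophage markers rose and 2 fell with age.

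All 8 mast cell markers were higher in LEC (8.83 to 10.2 per array in LEC and 5.93 to 8.0 in BEC, with log2 sums of 13.5 to 14.6 in LEC and 10.2 to 12.7 in BEC), with Fcer1a below the dim bound in every group mean. All 10 mural cell markers were lower in LEC and all 10 rose with age in BEC. Their mean per array was 5.39 to 5.82 over the LEC arrays, against 5.76 to 5.85 at E14.5, 6.56 to 6.71 at E16.5 and 7.75 to 7.85 at E18.5 in BEC, with log2 sums of 9.03 to 9.56 in LEC and 9.33 to 12.1 in BEC. For platelets, whose surface also carries CD36, 3 of 5 markers rose in LEC and all 5 fell in BEC with age. They averaged 5.40 to 5.55 at E14.5 and 6.24 to 6.41 at E18.5 in LEC. In BEC they averaged 6.37 to 6.41 and 5.36 to 5.39 at these ages. Most of the LEC climb was that of Pf4, with means of 5.58 at E14.5 and 8.84 at E18.5. Between these ages Itga2b went from 5.76 to 6.31, Ppbp from 4.60 to 5.07, Itgb3 from 5.91 to 6.06 and Gp9 from 5.53 to 5.45. Of 9 keratinocyte markers, 7 rose with age in LEC and 5 in BEC, and at E18.5 they averaged 6.93 to 7.44 in LEC and 5.99 to 6.33 in BEC. Adipocytes, which express most of the set, had 8 measured markers, of which 0 were higher and 2 lower in LEC over the ages, and 3 were lower at E18.5. They averaged 4.04 to 4.54 on every array, with log2 sums of 7.26 to 7.54 in LEC and 7.17 to 7.72 in BEC. Adipoq, Lep, Cidea and Ucp1 lay below the dim bound on all 18 arrays, Cidec on 9 and Retn on 6, while Plin1 (group means 4.82 to 5.39) and Pck1 (5.0 to 5.52) lay above it on all.

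**Figure D5:**
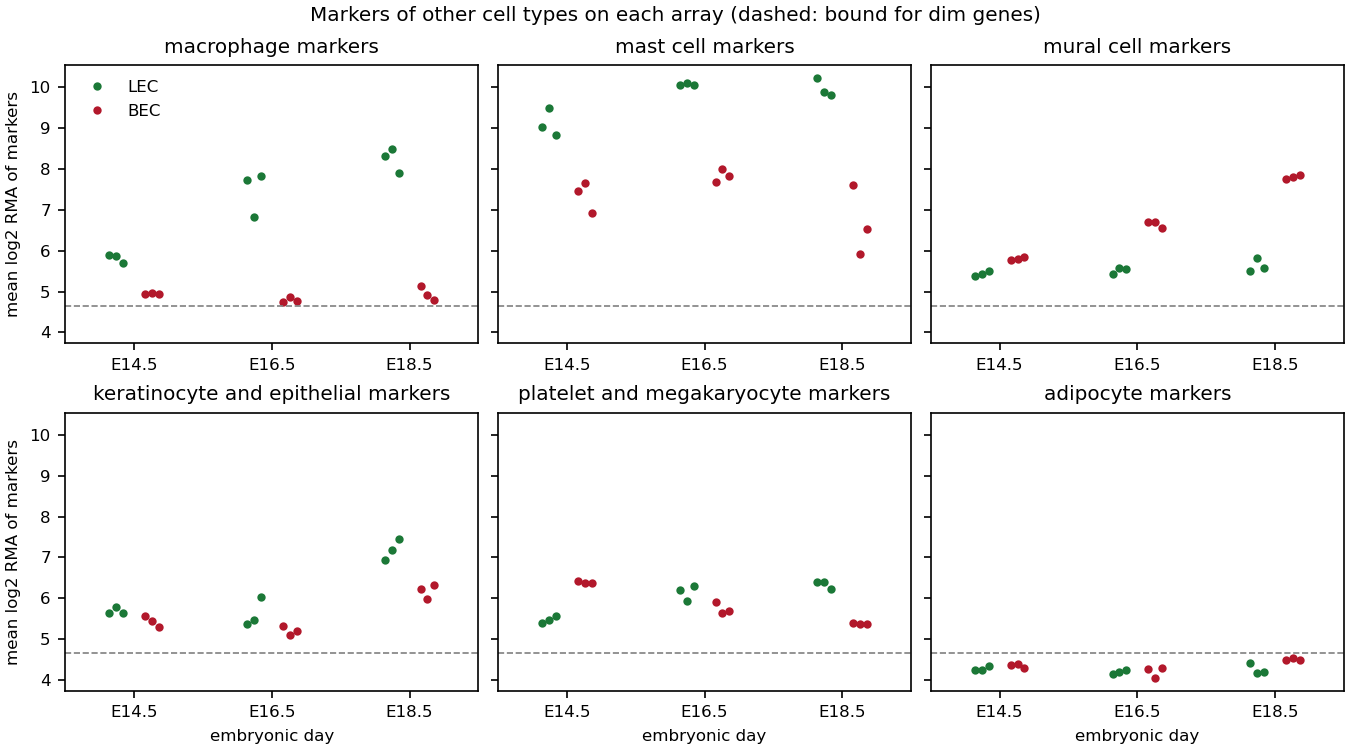
Mean log2 level of the markers of 6 other cell types (1 panel each, shared y axis) on each array by embryonic day, LEC in green and BEC in red; the dashed line is the dim bound of 4.66. Macrophage markers climb with age in LEC and mural cell markers in BEC, and adipocyte markers stay below the line.

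The genes with the most similar profiles over the 18 arrays were taken by Pearson correlation, a description with no test because all points share the same 6 groups. Cd36 was closest to Entpd1 (0.991), Glul (0.990) and Ablim1 (0.989), and Gpihbp1 to C1qtnf9 (0.994), Apbb2 (0.994) and Zfp827 (0.993). Meox2 was closest to Igf2r (0.992), Itga1 (0.991) and Slc9a3r2 (0.990). Fabp4 followed Cnksr3 (0.980), Pde8a (0.978) and Plpp1 (0.976), and Fabp5 followed Bcl6b (0.978), Dchs1 (0.974) and Plxnd1 (0.972). The profile of Tcf15 was nearest to Cdc42ep1 (0.977), Icam2 (0.976) and Nos2 (0.972), and that of Pparg to Stom (0.969), Gngt2 (0.969) and Stat3 (0.959). Lpl, the member higher in LEC, was closest to Cobll1 (0.978), Fam214a (0.976) and Ephx1 (0.974). Slc27a3 and Slc27a4 had weaker matches, with Sike1 (0.915), Fbxl12 (0.901) and Stard3 (0.897) for Slc27a3, and Vhl (0.878), Tie1 (0.867) and Limk2 (0.856) for Slc27a4.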

How the data were processed

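The deposited table holds log2 expression values of 18 arrays, produced by the authors through RMA (background correction, quantile normalization and probe summary) in the package oligo 1.54.1, per the submitters' processing notes. Whether all arrays were normalized together, and the summary level, is not given in the sources used here. Of 35556 rows, the platform annotation gave 21789 exactly 1 gene symbol and 1621 several. Rows with several or none were not tested, and the brightest row stood for each of 19938 genes, with no filter. Entrez identifiers of 21698 rows were found in the RefSeq gene table, and 0 symbols changed.

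A linear model with a mean per group took in every array (limma 3.58.1, R 4.3.3, eBayes with no trend, 12 residual and 6.11 prior degrees of freedom), and 13 contrasts were drawn from it. Two-sided p values received the Benjamini-Hochberg adjustment across all genes of a contrast, with a threshold of 0.05. Errors are limma SE. Contrasts that share a group are not independent. The script was tested on simulated data.

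The members, and 18 further lists of pathway genes and cell type markers, were chosen with earlier results of these data known, and 202 of 216 listed genes were measured. Named from each pathway list are the 3 called genes with the largest LEC minus BEC difference, the 2 called genes with the largest age change in each cell type, and 12 partners and paralogs of the members. The age changes of the 2 single steps were compared between cell types after seeing the data. The settings tried were 2 other scalings, fewer groups in the fit, array weights, a variance trend, the mean of all rows of a gene, a filter on dim genes, replicate blocks, and leaving out each array. The number of arrays limits the precision.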

Additional observations from a re-analysis of the deposited data

Results flagged for a closer look

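Some genes differed between the cell types in how they changed with age, by the limma test of the LEC age change minus the BEC age change, adjusted over all genes. These comparisons share their arrays with those of the report. Among the members, Fabp5 passed from E14.5 to E18.5 at -1.22, and over the first step, from E14.5 to E16.5, Fabp5 passed at -1.47, Fabp4 at -0.995 and Gpihbp1 at -0.67. Fabp4 passed with the opposite sign over the second step, at 0.82, and its LEC minus BEC difference was -2.43, -3.42 and -2.61 by age. With 1 array left out, the second-step value of Fabp4 lost its call in 14 of 18 fits (adjusted p up to 0.11), that of Gpihbp1 in 10 (up to 0.14) and the first-step value of Fabp4 in 1 (0.055, without LEC replicate 1 of E16.5), and the second-step call of Fabp4 was also lost under both other scalings, array weights and the replicate block. The single steps were compared after seeing the data.

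Over the full lists, the E14.5 to E18.5 test passed as higher and lower for 3 and 1 of 14 lipolysis and lipoprotein receptor genes. It passed for 1 and 1 of 19 transport genes, and for 0 and 3 of 12 storage genes. For 27 regulators it was 2 and 3, and for 14 capillary markers 3 and 5, where 8.85% of all genes passed. Most named genes were picked for large differences on these same arrays, so their split does not describe the lists. Of the named genes, 8 changed less upwards or more downwards in LEC from E14.5 to E18.5. They are Mgll at -2.75 (adjusted p = 6.2e-07), Fabp9 at -2.21 (adjusted p = 0.00091), Aqp7 at -1.90 (adjusted p = 0.00084), Scarb1 at -1.82 (adjusted p = 6.1e-07), Cd300lg at -1.66 (adjusted p = 0.00036), Lipe at -1.54 (adjusted p = 2.2e-05), Dgat1 at -0.69 (adjusted p = 0.031) and Meox1 at -0.65 (adjusted p = 0.027). The LEC change exceeded that of BEC for Sdc4 by 1.62 (adjusted p = 8.8e-05), for Nrp1 by 1.59 (adjusted p = 0.0019), for Cav1 by 0.87 (adjusted p = 0.0014) and for Vldlr by 0.70 (adjusted p = 0.041). The values of Fabp9 and Aqp7 rest on means below the dim bound of 4.66 and are no exact fold changes: Fabp9 averaged 2.93 at E14.5 and 3.02 at E18.5 in LEC and 3.16 at E14.5 in BEC, and Aqp7 averaged 4.5 at E14.5 in LEC.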

How the results depend on the processing

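No member difference changed sign among those that passed the test, under any setting run. Counts of called members moved by over 1.5 times in the following cases. The E16.5 to E18.5 difference of age changes had 0 called members, against 1, with a common median, quantile normalization, array weights or the replicate block, and 0 to 1 with 1 array left out. A variance trend gave 5 called members, against 3, for E18.5 minus E16.5 in BEC, and 2, against 1, for the E14.5 to E18.5 difference of age changes. With 1 array left out these ranged from 1 to 4 and from 1 to 2, and the E14.5 to E16.5 difference from 1 to 3. E18.5 minus E16.5 in BEC had 1 called member without BEC replicate 1 or 3 of E16.5 or BEC replicate 3 of E18.5. The E14.5 to E18.5 difference had 2 without BEC replicate 2 of E14.5 or replicate 1 of E18.5, and the E14.5 to E16.5 difference 1 without LEC replicate 1 of E16.5. The cause was not tested. Slc27a4 over the ages missed the threshold with a common median (adjusted p = 0.054), and Slc27a3 at E18.5 with only the groups compared (adjusted p = 0.15) or array weights (adjusted p = 0.066). In a fit without the E18.5 arrays, added after seeing the data, LEC minus BEC had 10 called members over the ages.

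Same-numbered LEC and BEC arrays of an age did not deviate together: their deviations correlated at -0.107 to 0.13 in 9 pairs, and 4 of 9 correlated best with their own number. With the replicate number as a block, 10 members were called for LEC minus BEC over the ages, as without it, and the E14.5 to E16.5 difference had 2.

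Setting arrays to a common median lowered all E18.5 minus E16.5 differences in LEC by 0.12, and over all genes turned the 3170 higher and 3684 lower calls of that step into 1804 and 4972. In BEC the split of that step was 1879 and 4284 against 3159 and 3274, for E16.5 minus E14.5 in BEC 1287 and 650 against 1016 and 929, and for the whole span in LEC 3001 and 4975 against 3930 and 4219. All-gene counts without 1 array fell at lowest to 1758 for the E14.5 to E16.5 step in LEC (without LEC replicate 1 of E16.5) and to 850 in BEC (without BEC replicate 2 of E16.5). Genes called at E18.5 between LEC and BEC numbered 3707 with only the groups compared, against 6071, and array weights gave 4544 against 2749 for E16.5 minus E14.5 in LEC and 4022 against 1945 in BEC, 1215 against 524 for the difference of these changes, and 395 against 728 for that of the later step. With 1 array left out, the 2 differences had at lowest 310 and 431 genes. Without the E18.5 arrays the step in BEC had 3318 and the difference 839. With 3 arrays per group, small differences, such as those of Slc27a3 and Slc27a4, lie near the limit of what was called.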
